A study of Mus musculus with 3 samples.

Results

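The regions described here are the Atoh7 CUT&RUN peaks that sit at the ends of protein-coding genes in the embryonic mouse retina. A peak was a member when its centre lay within 1 kb of either end of a RefSeq protein-coding gene on mm10, and the choice used position alone. Chromosomes 1 to 19 and X held 3662 peaks, of which 794 (21.7%, with a 95% Wilson interval from 20.4 to 23.05) met this rule, and they are called end peaks below. They reached 930 genes. The whole list held 3668 peaks, of which 5 on the mitochondrial chromosome and 1 on a scaffold were left out. Retinas were from C57Bl6/J mice at embryonic day 14, with no transgene or treatment named in the labels. There were 2 libraries made with an antibody to Atoh7 and 1 with IgG, the control for unspecific cutting. Nothing in the labels ties either Atoh7 library to its own animals. The single list gives a position, a width and a name for each peak and no value per library, every name begins with Atoh7_R1, and read depth is unknown. Hence all values below are counts, shares and positions within 1 list, with no replicate error and no test; the intervals cover counting only. Genes that share a peak are not independent.

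Atoh7 belongs to the basic helix-loop-helix (bHLH) transcription factors. It marks a transient class of retinal progenitors and is required for most retinal ganglion cells, the neurons that form the optic nerve. Proteins of this family pair with broadly expressed partners such as Tcf3 and bind a short palindrome-like element, the E-box, written CANNTG with N for any base. In CUT&RUN a nuclease tethered to the antibody cuts the DNA around a bound protein in unfixed nuclei, so that short released fragments mark where the protein, or an open stretch near it, lies. Gene starts are among the most accessible stretches of the genome, many lie in CpG islands, and genes on opposite strands often share one such stretch as a divergent pair.

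The promoters below are picked examples and not a sample of end peaks, since most genes reached were in none of the gene lists used below. They are those of Atoh7 itself, other neurogenic genes (Hes6 with 2 listed starts, Neurod1, Gadd45g), the ganglion cell factor Pou4f1 and the splicing regulator Ptbp1. The promoters of the gene under the widest end peak (Numbl) and of a divergent pair of housekeeping genes (Rps28 and Ndufa7, chosen after their values were seen) follow. Each is 300 bases of RefSeq sequence on GRCm38.p6 (mm10), from 250 before to 50 after a listed start, written 5′ to 3′ on the gene's strand, with every match to CANNTG in capitals.
Atoh7 promoter, chr10:63099535-63099834, plus strand: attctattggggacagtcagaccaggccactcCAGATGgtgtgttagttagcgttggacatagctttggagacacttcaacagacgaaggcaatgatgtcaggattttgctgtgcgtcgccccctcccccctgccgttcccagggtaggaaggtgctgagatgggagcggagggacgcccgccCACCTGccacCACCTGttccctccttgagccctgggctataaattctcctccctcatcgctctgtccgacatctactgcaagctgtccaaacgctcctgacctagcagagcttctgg
Hes6 outer promoter, chr1:91413989-91414288, minus strand: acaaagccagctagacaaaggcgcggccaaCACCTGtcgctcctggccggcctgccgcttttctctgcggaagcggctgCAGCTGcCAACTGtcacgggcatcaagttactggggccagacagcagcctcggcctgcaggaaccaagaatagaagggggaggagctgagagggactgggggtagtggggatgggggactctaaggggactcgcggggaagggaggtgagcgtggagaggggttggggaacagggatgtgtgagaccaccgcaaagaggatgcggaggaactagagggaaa
Hes6 inner promoter, chr1:91413173-91413472, minus strand: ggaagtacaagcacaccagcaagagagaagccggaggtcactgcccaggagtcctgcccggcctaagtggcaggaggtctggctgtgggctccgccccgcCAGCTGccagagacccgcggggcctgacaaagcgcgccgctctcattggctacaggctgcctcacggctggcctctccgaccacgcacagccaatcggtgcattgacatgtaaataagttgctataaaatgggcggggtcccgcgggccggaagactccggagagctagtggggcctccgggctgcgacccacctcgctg
Neurod1 promoter, chr2:79456587-79456886, minus strand: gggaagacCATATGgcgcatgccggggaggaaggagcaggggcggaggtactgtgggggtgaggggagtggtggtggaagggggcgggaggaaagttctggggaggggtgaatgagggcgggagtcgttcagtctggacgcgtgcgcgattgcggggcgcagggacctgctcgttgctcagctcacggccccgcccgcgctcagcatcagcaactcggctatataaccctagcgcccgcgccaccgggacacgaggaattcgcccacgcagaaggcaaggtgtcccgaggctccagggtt
Gadd45g promoter, chr13:51846425-51846724, plus strand: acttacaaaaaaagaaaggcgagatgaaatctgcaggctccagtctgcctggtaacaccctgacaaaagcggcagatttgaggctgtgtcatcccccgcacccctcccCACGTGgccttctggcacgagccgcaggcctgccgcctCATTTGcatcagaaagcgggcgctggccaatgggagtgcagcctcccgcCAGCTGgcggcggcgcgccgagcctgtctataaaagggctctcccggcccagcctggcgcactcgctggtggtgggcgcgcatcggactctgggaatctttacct
Pou4f1 promoter, chr14:104467950-104468249, minus strand: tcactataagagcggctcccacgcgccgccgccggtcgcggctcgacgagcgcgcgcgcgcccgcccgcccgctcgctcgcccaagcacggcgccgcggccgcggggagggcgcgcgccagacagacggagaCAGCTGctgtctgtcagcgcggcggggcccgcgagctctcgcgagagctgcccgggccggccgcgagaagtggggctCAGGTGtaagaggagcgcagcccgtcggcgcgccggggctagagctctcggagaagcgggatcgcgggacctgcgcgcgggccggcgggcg
Ptbp1 promoter, chr10:79854182-79854481, plus strand: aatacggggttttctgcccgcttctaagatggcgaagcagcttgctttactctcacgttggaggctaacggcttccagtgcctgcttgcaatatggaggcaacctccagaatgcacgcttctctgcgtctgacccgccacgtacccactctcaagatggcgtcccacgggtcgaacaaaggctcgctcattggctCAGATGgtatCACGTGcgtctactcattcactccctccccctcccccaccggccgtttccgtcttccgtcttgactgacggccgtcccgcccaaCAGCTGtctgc
Numbl promoter, chr7:27258511-27258810, plus strand: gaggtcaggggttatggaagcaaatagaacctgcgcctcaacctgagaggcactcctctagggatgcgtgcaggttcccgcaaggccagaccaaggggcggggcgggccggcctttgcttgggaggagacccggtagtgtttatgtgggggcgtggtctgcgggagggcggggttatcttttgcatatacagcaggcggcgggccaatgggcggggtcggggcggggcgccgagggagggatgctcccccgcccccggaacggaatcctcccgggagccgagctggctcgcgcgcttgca
Ndufa7 and Rps28 promoter, chr17:33824322-33824621, plus strand: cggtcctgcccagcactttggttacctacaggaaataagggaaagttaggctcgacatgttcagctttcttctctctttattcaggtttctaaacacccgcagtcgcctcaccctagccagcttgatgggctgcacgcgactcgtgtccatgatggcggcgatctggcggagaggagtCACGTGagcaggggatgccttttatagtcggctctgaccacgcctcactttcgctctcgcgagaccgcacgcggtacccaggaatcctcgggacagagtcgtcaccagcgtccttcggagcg
The Atoh7 window holds 3 E-boxes, all inside its 582 bp peak: a pair of CACCTG 14 and 24 bp from the peak centre, and CAGATG 137 bp away. In the inner Hes6 window the single E-box, CAGCTG, lies 11 bp from the centre of a 461 bp peak. The outer Hes6 window has CACCTG at 28 bp, CAGCTG at 77 bp and CAACTG at 84 bp from the centre of its own peak. In Gadd45g, CACGTG lies 10 bp from the centre, CATTTG 28 bp and CAGCTG 77 bp. Neurod1 has only CATATG, at 58 bp. The Ptbp1 window has CAGATG at 18 bp, CACGTG at 28 bp and CAGCTG at 112 bp. In Pou4f1, CAGCTG lies inside the peak, 126 bp from its centre, while CAGGTG falls outside it. Numbl has no E-box in the window, which holds only 235 bases of its 1178 bp peak, so most of that peak was not searched. In the Ndufa7 and Rps28 window the single E-box, CACGTG, lies 7 bp from the peak centre, inside Rps28 rather than between the starts. A match is a description of the letters, not a binding site, and CANNTG was present in 68.8% of all 17273 promoter windows examined, 1 per gene. Of 525 end peaks that overlapped a window, 52.6% had CANNTG in the covered bases, so the examples are richer in it than end peaks at large.

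End peaks were mostly peaks at gene starts, centred close to them. Strand was known from the RefSeq promoter table for 17273 of 21627 coding genes (79.9%), and for at least 1 gene at 669 of the 794 end peaks. Of those 669 peaks, 599 (89.5%) lay at a start only, 43 (6.43%) at a finish only, meaning the 3′ end of the gene, and 27 (4.04%) at the start of a gene and the finish of another gene or the same short gene. Counted by gene, 707 of 17273 genes (4.09%) had a peak at the start and 69 (0.399%) at the finish.

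Start peaks straddled the annotated start. Of 714 pairs of a peak and a start, 396 (55.5%) had the centre outside the gene, 401 (56.2%) covered the start, and 640 (89.6%) were centred within 500 bp. The quartiles of the signed distance were -168, -22 and 117 bp, where a negative value is outside the gene. The best filled 100 bp bin was the one just outside the start, with 135 pairs. Finish peaks were spread more evenly: of 70 pairs, 12 (17.1%) covered the finish and 32 (45.7%) lay within 500 bp, and no bin held more than 8 pairs. Only 2 of the 43 finish-only peaks had a listed start of any gene within 1 kb. Over all end peaks the median distance to the nearest gene end was 153.5 bp (quartiles 69 and 281.5 bp), and 438 (55.2%) covered it. Near the 1 kb limit the list was thin: 14 peaks had their nearest end at 900 to 1000 bp, and 15 were in the next 100 bp beyond the limit.

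**Figure D1:**
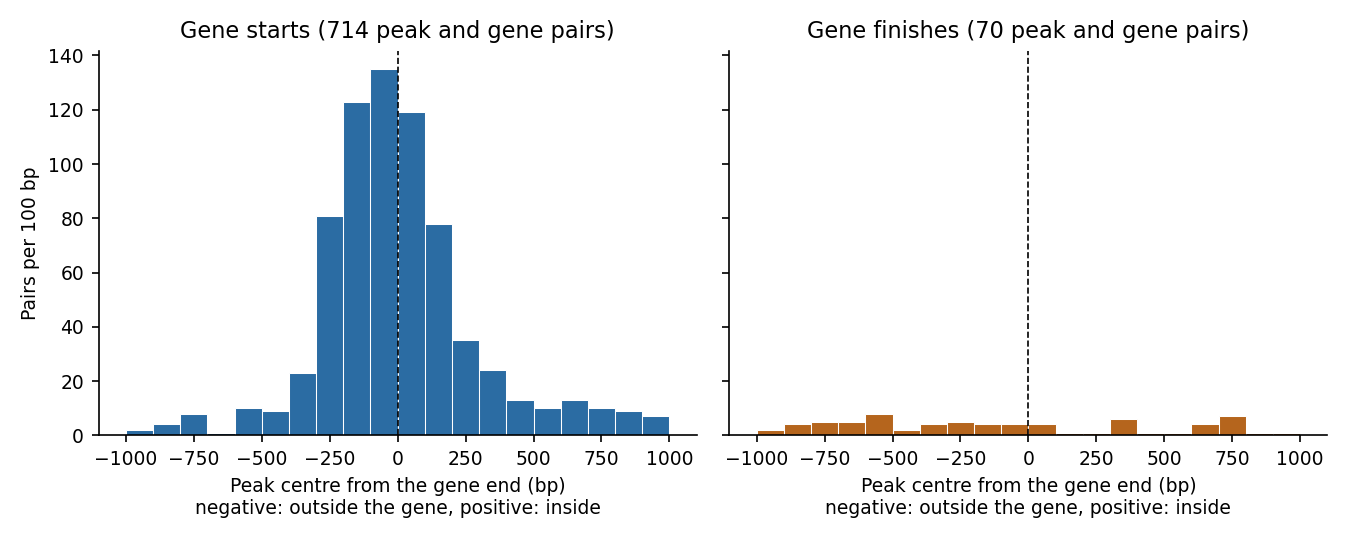
Number of peak and gene end pairs (vertical axis) in 100 bp bins of the distance from the gene end to the peak centre in bp (horizontal axis, negative outside the gene), for starts and finishes. The start bins peak at 135 pairs just outside the start, and no finish bin holds more than 8.

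Genes of neurogenesis were among those reached. Of 34 proneural and other bHLH factors and partners, 7 had an end peak (20.6%, interval 10.3 to 36.8), against 4.30% of all coding genes. They were Atoh7, Neurog2, Neurod1, Bhlhe22, Hes6, Id1 and Tcf3. Of 28 neurogenic progenitor and nascent neuron genes, 5 did (17.9%, 7.88 to 35.6), namely Gadd45a, Gadd45g, Srrm4, Myt1 and Onecut2. In the Notch pathway, through which a neighbour keeps cells as progenitors, 3 of 28 did (10.7%, 3.71 to 27.2): Dll3, Mfng and Numbl. Where the peak had to overlap the gene end, which 2.3% of all genes met, the shares were 8.82% for the bHLH list, 10.7% for the neurogenic list and 7.14% for the Notch list. The gene lists were drawn up with earlier results of these data known, so a high share in them is not independent evidence; the difference between lists was not tested.

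The bHLH genes were mostly reached just upstream. The Atoh7 peak (chr10:63099416-63099997) was centred 79 bp outside the start of its own gene, which also had 3 further peaks assigned to it elsewhere. Neurog2, a proneural factor of the same class, had a 323 bp peak (chr3:127632532-127632854) centred 40 bp outside its start and no other. At Neurod1, a factor of early neuronal differentiation, the centre lay 297 bp outside the start and the 534 bp peak did not cover it. Hes6, which promotes neurogenesis by opposing Hes1, had 2 end peaks. The outer one (chr1:91414041-91414525) was centred 245 bp outside the gene's outermost start. The inner one (chr1:91413150-91413610) was centred 658 bp inside the gene. It covers the inner listed start printed above. For Tcf3, the bHLH partner, the centre was 179 bp outside the start. Bhlhe22, a bHLH repressor of amacrine subtypes, had a peak centred 153 bp outside a gene end of unknown strand. The Id1 peak only just met the rule, at 987 bp outside an end of a gene whose product binds E proteins and blocks their pairing.

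Among the nascent neuron genes, the pair of growth arrest genes Gadd45a and Gadd45g had peaks centred 144 and 130 bp outside their starts, each covering the start, and each gene had 4 further peaks. Srrm4, which promotes neuronal splicing and stands on both this list and that of RNA-binding proteins, had a 702 bp peak centred 439 bp inside its start. Myt1, a zinc finger factor that favours neuronal fate, was reached 688 bp inside its start. Onecut2, a factor of horizontal and ganglion cells, had a 360 bp peak (chr18:64339717-64340076) over a gene end of unknown strand. Of the Notch genes, the ligand Dll3 had a narrow peak of 238 bp centred 456 bp outside its start. Mfng, a glycosyltransferase that modifies Notch, had a 539 bp peak centred 7 bp outside a gene end. Numbl, a relative of the Notch inhibitor Numb, lay under the widest end peak of all, 1178 bp (chr7:27257568-27258745), which also reached Coq8b, a gene of coenzyme Q synthesis, 207 bp outside its nearer end.

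Several other genes of neurogenesis and retinal fate were not reached, some with a peak just beyond the limit. The nearest peak centre lay 1.53 kb from an end of Notch1, inside the gene, and outside the gene at 1.56 kb for Dll4, 1.99 kb for Neurod4, 2.06 kb for Dll1 and 2.09 kb for Hes5. The phosphatase gene Cdc25b had a 1313 bp peak 3.99 kb inside it. Others were far away: 45 kb for Hes1, 48.0 kb for Otx2, 66.1 kb for Insm1, 84.0 kb for Pou4f2, 205 kb for Isl1 and 218 kb for Crx.

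Markers of retinal cell classes were reached in small numbers. The shares were 6.67% for ganglion cells, 7.41% for amacrine and horizontal cells, 4% for bipolar cells and Muller glia, and 3.57% for photoreceptors. The 4.30% of all coding genes lies inside the interval of each. Of 30 ganglion cell factors and markers, 2 had an end peak (6.67%): Pou4f1, a POU factor of ganglion cell differentiation, with a 403 bp peak centred 122 bp outside its start, and Klf7, which supports axon growth, 655 bp inside its start. Among 28 photoreceptor genes only Nrl, the rod fate factor, had one, and it lay at the finish of the gene. For amacrine and horizontal cells, 2 of 27 were reached, Barhl2 and Tcf7l2, both at the finish. Barhl2, an amacrine and ganglion subtype factor, had 2 narrow peaks beyond its finish, 218 and 193 bp wide, centred 320 and 584 bp outside. Prdm8, a factor of rod bipolar and amacrine cells, was the only 1 of 25 bipolar and Muller glia genes, with its peak 258 bp inside the start. None of 28 retinal progenitor genes had an end peak (upper limit of the interval 12.1%), although 32.1% of them were nearest to another peak, beside 7.99% of all coding genes, with nearest counted up to 100 kb.

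Of the other lists, axon guidance had 2 of 40, the secreted ligand Slit1 and the receptor Ephb3, and neuronal cytoskeleton 1 of 27, the microtubule protein Map6. Chromatin regulators had 3 of 40, among them the Polycomb protein Cbx8 and the methyltransferase Kmt2a. RNA-binding and splicing regulators had 4 of 30 (13.3%, 5.31 to 29.7): Srrm4, Ptbp1, Tardbp and, at its finish, Nova1. Ptbp1, which represses neuronal exons, and Tardbp, which binds RNA in the nucleus, both had a peak over the start. No gene of cell cycle (33), endothelium and blood (26), pigment epithelium and lens (26) or liver (28) had one. Of 28 skeletal muscle genes, included as a tissue that retina should lack, Myh3 and Cacna1s did (7.14%, 1.98 to 22.6). Their peak centres lay 799 bp outside a start and 734 bp inside a finish. In all, 32 of 498 list members had an end peak (6.43%), beside 4.30% of all coding genes.

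Most genes reached were in no such list: 789 of 930 were in none of the 17 lists and 24 families named by gene symbol. Families of general cell machinery were also reached, though for some of them by narrow peaks. Their shares stand beside 4.30% of all coding genes. That value lies inside the intervals of translation initiation factors (3.95 to 19.6), RNA polymerase subunits (3.71 to 27.2) and Rab GTPases (4.05 to 17.7). The other families of this paragraph had lower limits from 4.42% to 6.93%. Cytosolic ribosomal proteins had 10 of 80 (12.5%, 6.93 to 21.5), with the widest peaks at Rpl4, Rps19, Rps18 and Rpl23a. Mitochondrial ribosomal proteins had 7 of 78 (8.97%), among them Mrpl41, Mrps7, Mrpl34 and Mrps14. Translation initiation factors had 5 of 55 (9.09%), led by Eif4g2 with an 813 bp peak. Complex I of the respiratory chain had 5 of 49 (10.2%), Ndufa7, Ndufa11, Ndufs8 and the assembly factors Ndufaf3 and Ndufaf8. RNA polymerase subunits had 3 of 28 (10.7%), Polr1c, Polr2b and Polr2e, and none of these 28 genes was nearest to another peak. Rab GTPases, which direct vesicle traffic, had 6 of 69 (8.70%), and ubiquitin-conjugating enzymes and ubiquitin proteases 8 of 93 (8.60%), Ube2d3 with 843 bp and Ube2e2 with 703 bp the widest. With only the wider 50% of all peaks, which reached 1.92% of all genes, the share was 8.75% for cytosolic ribosomal proteins, 8.16% for complex I, 7.53% for the ubiquitin enzymes and 3.57% for RNA polymerase. It was 1.28% (0.227 to 6.91) for mitochondrial ribosomal proteins, 1.82% (0.322 to 9.61) for translation initiation factors and 1.45% (0.256 to 7.76) for Rab GTPases, below that of all genes. These intervals and that of RNA polymerase (0.633 to 17.7) include 1.92%, so the counts are too few to place these families on either side.

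Splicing and hnRNP proteins had 6 of 117 (5.13%), solute carriers 17 of 337 (5.04%), proteasome subunits 2 of 49 (4.08%) and Zfp zinc finger proteins 15 of 397 (3.78%). Potassium channels had 3 of 94 and Klf and Sp factors 1 of 29, Klf7. Transmembrane Tmem proteins, a naming class without a shared function, had 18 of 235 (7.66%), and kinesins, which move cargo on microtubules, 3 of 38 (7.89%). No Hox (39), Sox (19), histone (102), protocadherin (69), collagen (44), keratin (53) or vomeronasal receptor gene (353) had an end peak, nor any interleukin or chemokine (74). Except for histones (upper limit 3.63%) and vomeronasal receptors (1.08%), the intervals of these families include the 4.30% of all coding genes. Of 1106 olfactory receptor genes 1 did (0.0904%), Olfr223. A further 14 families were added after their values were seen. Of these, mediator and integrator subunits, which couple factors to RNA polymerase, had 5 of 45 (11.1%), aminoacyl-tRNA synthetases 3 of 35, and cilium and centrosome proteins 7 of 89, while cytochrome P450 genes had 0 of 99. The others had 2 of 50 (general transcription factors), 3 of 45 (vacuolar sorting), 2 of 18 (autophagy), 4 of 86 (cullins and F-box proteins), 6 of 80 (ring finger proteins), 8 of 137 (coiled-coil domain proteins), 2 of 38 (mitogen-activated kinases), 2 of 25 (histone methylases and demethylases), 0 of 23 (cadherins) and 2 of 166 (lectins, defensins and serpins).

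The lists differed in how their genes were reached. For the neurogenic list 50% of members were nearest to another peak and 17.9% had an end peak. The cytosolic ribosomal family went the other way, with 6.25% and 12.5%. Of members with a promoter window, the share with a CpG-rich one by the definition given further on was 79.2% for the Notch list, 76.7% for cytosolic ribosomal genes, 68.0% for bHLH genes, 66.7% for the neurogenic list and 0 of 940 for olfactory receptor genes. The intervals of the first 4 overlap, at 59.5 to 90.8, 64.6 to 85.6, 48.4 to 82.8 and 45.4 to 82.8 in the same order. The part of CpG content in the list counts was not tested.

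**Figure D2:**
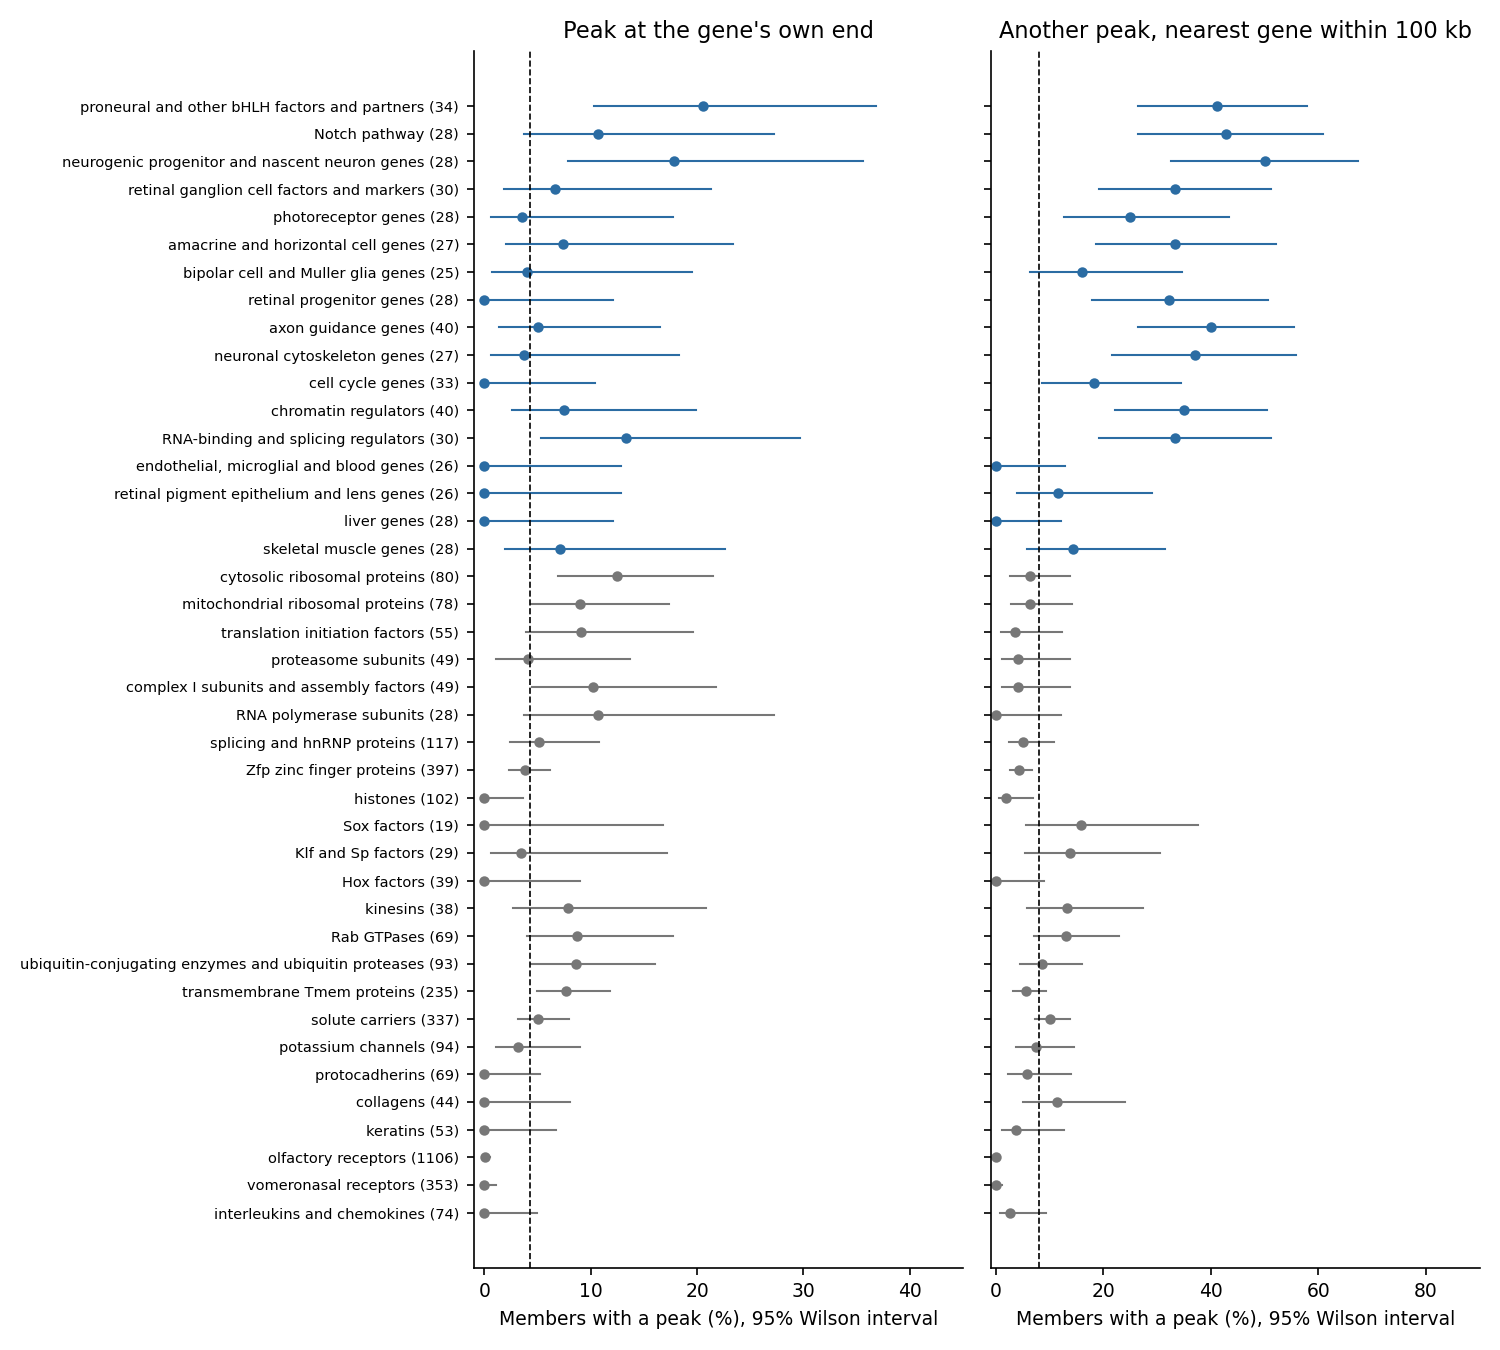
Percent of the members of each list (blue) and symbol family (grey) with an end peak (left) or nearest to another peak within 100 kb (right), with 95% Wilson intervals; dashed lines mark all coding genes, 4.30% and 7.99%. bHLH and neurogenic genes lie above the line in both panels (20.6% and 17.9% on the left), while cytosolic ribosomal genes lie above it on the left (12.5%) and below it on the right (6.25%).

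Few genes held more than 1 end peak. There were 14 with 2 and none with 3, Hes6 and Barhl2 among them. Adamtsl2, a secreted matrix protein gene, Synrg, a gene of clathrin traffic, and Tmem209, a nuclear envelope protein gene, had separate peaks at start and finish, in genes 29.6, 80.2 and 28.8 kb long. The other 4 genes with both ends reached, Gm10318, Gm19668, Naa38 and Olfr223, were under 1 kb long, so that 1 peak reached both ends. Besides Numbl, the widest end peaks lay at Poldip3 (1068 bp), Trib1 (1044 bp), Ube2d3 (843 bp), Tppp3 (822 bp), Eif4g2 (813 bp), Naa38 with Cyb5d1 and Tmem88 (802 bp), Pgs1 (796 bp), Skil (790 bp) and Mrgpre (782 bp). Width is where the peak caller set its bounds and is not occupancy.

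Peaks fell at divergent gene pairs, in which genes on opposite strands have starts at most 1 kb apart and point away from each other. Of 581 such pairs, 54 (9.29%, 7.19 to 11.9) had an end peak, each within 1 kb of both starts. Of genes in no pair, 599 of 16119 (3.72%, 3.43 to 4.02) had a start peak. A pair offers 2 starts to a peak, and pairs are richer in CpG: 80.8% of their genes had a CpG-rich promoter window against 43.9% of genes in no pair. Among pairs with at least 1 CpG-rich window the share with a peak was 9.90% (7.63 to 12.8), and among CpG-rich genes in no pair it was 6.70% (6.14 to 7.31). Divergent pairs accounted for 54 of the 794 end peaks (6.80%), or 54 of the 626 with a known start (8.63%). Only genes of known strand could form a pair, and 125 end peaks had no such gene. A gene whose partner had no known strand therefore counted as in no pair.

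At these pairs the peaks lay over the shared stretch. The median gap between starts was 102 bp, beside 101 bp over all 581 pairs. In 31 pairs (57.4%) the peak covered both starts, in 10 only the start of the plus strand gene, in 4 only that of the minus strand gene and in 9 neither. The median distance of the peak centre from the middle of the pair was 73.5 bp, and in 24 pairs the centre lay between the starts.

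None of the 54 pairs held a member of the 17 lists (upper limit of the interval 6.64%). Of all 581 pairs 10 did (1.72%), a share below that limit, so the counts are too few to show a difference. The widest peak, 698 bp, lay beside the pair of Brca1, a DNA repair gene, and Nbr1, an autophagy receptor gene, centred 357 bp inside Nbr1. A 693 bp peak covered the starts of Pign, an enzyme of GPI anchor synthesis, and Relch. At Atp5pb, a subunit of ATP synthase, and Wdr77 the peak spanned 648 bp over both starts, 235 bp apart. The others of the 12 widest were at the pairs of Prr11 and Ska2 (656 bp), Ints13 and Fgfr1op2 (643 bp), Nop14 and Grk4 (620 bp), Slc26a8 and Mapk14 (602 bp), Styxl1 and Mdh2 (584 bp), Mthfd2 and Mob1a (539 bp), Tepsin and Ndufaf8 (531 bp), Pdcd10 and Serpini1 (517 bp), and Hnrnph3 and Pbld2 (514 bp). Some pairs held genes of mitochondria or of translation. Rps28 faced Ndufa7 across 10 bp under a 284 bp peak, Lrsam1 faced Rpl12, Vmac faced Ndufa11, and Ndufaf3 faced Dalrd3. Mrpl34 and Mrpl41 faced Abhd8 and Pnpla7. These last pairs were picked after their values were seen, and the share of such genes among all 581 pairs is not given here.

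**Figure D3:**
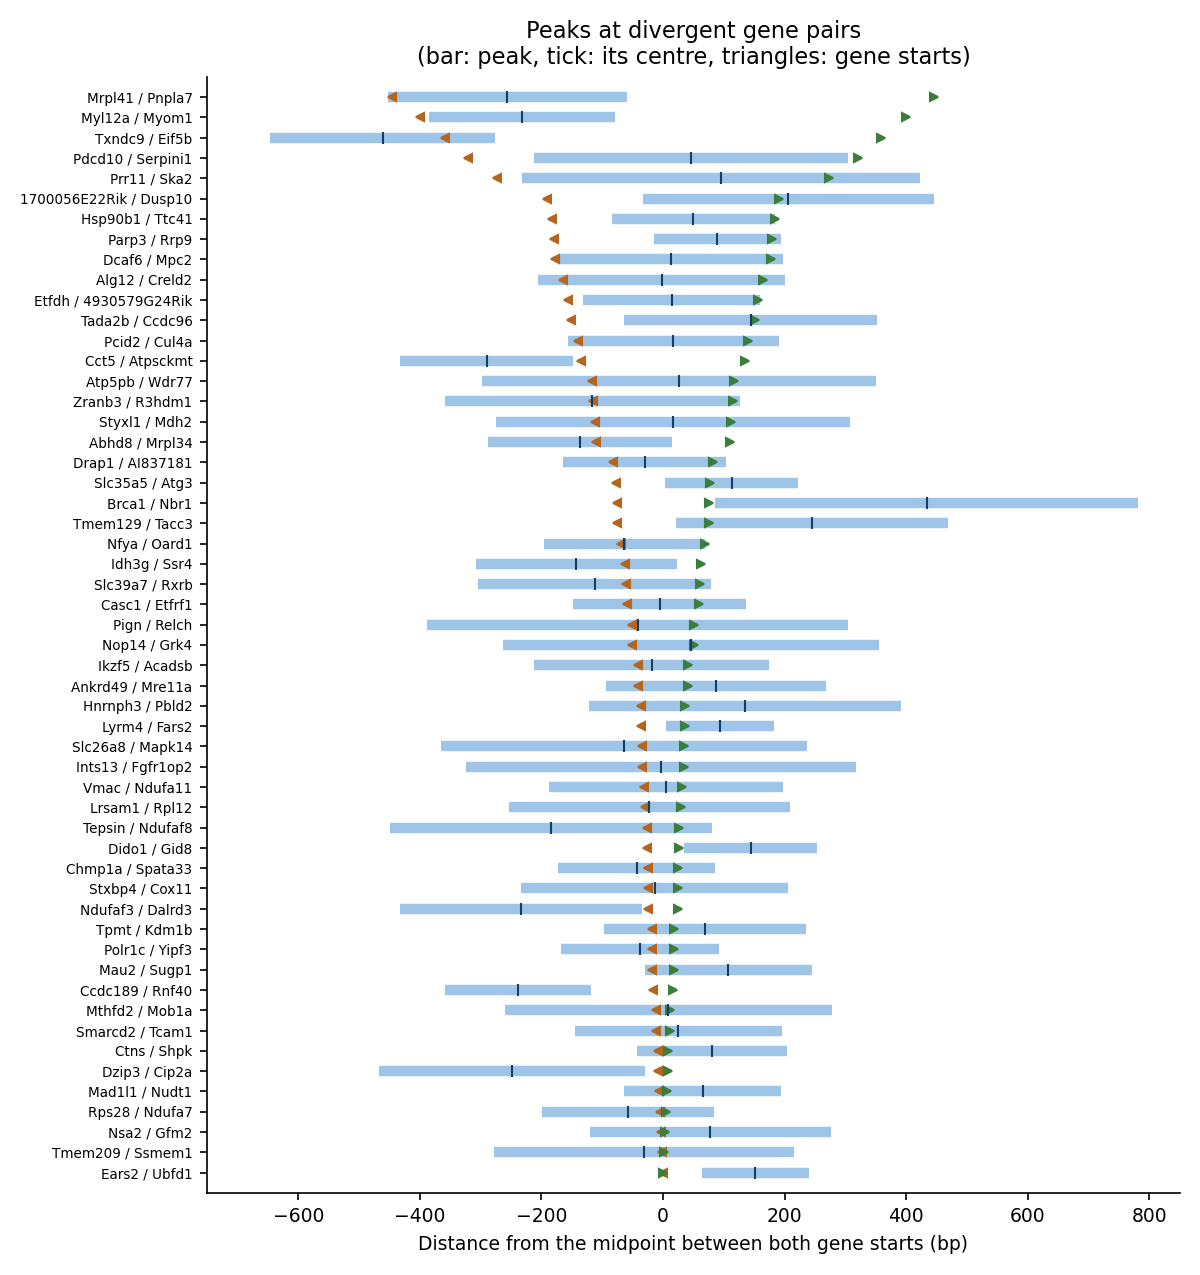
Each row is 1 of the 54 divergent pairs with a peak, ordered by gap; the horizontal axis is the distance in bp from the middle of the pair, with a bar for the peak, a tick for its centre and triangles for the minus strand (orange) and plus strand (green) starts. In 31 rows the bar covers both starts, and the Brca1 and Nbr1 bar lies to the right of both.

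Start-peak promoters were rich in CpG. A 300 bp window was called CpG-rich when its observed over expected CpG was at least 0.6 and its GC content at least 50%. Of the windows of the 707 genes with a start peak, 578 were overlapped by such a peak. The rest lay beside it and are counted here and in the motif shares below. Of 707 genes with a start peak, 570 were CpG-rich (80.6%, 77.5 to 83.4), against 44.9% of genes without one. Their median GC content was 62.7% and their median CpG ratio 0.810. Read the other way, 7.12% of CpG-rich and 1.48% of CpG-poor promoters had a start peak. Promoters of genes nearest to another peak and without a start peak were CpG-rich in 62.4% of cases. The 20 list members with a start peak had 12 CpG-rich windows (60.0%, 38.7 to 78.1). Atoh7 itself was not CpG-rich, with a ratio of 0.455, while Pou4f1 had a ratio of 1.24.

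**Figure D4:**
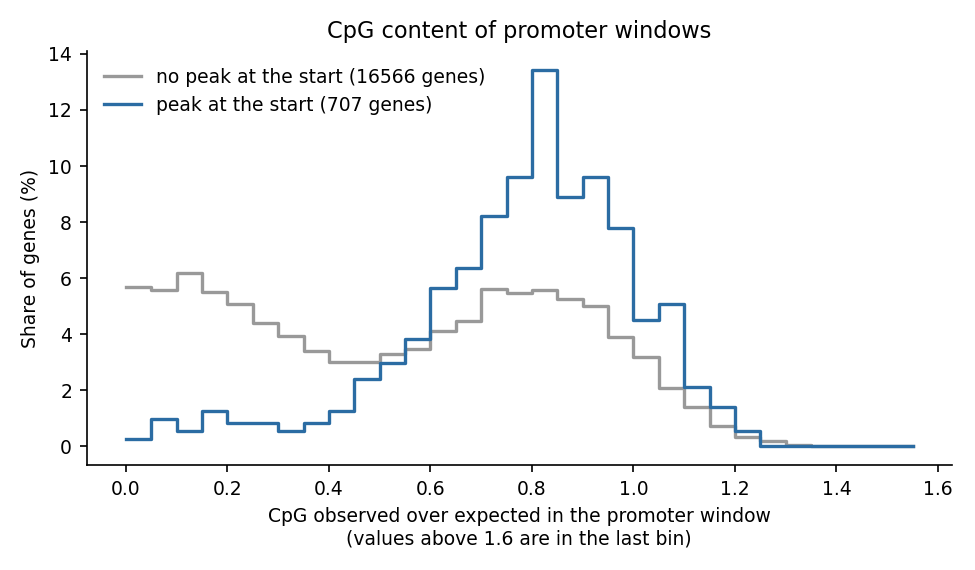
Share of promoter windows (vertical axis) by observed over expected CpG (horizontal axis), for genes with a start peak and all other genes with a window. Genes with a start peak gather near their median of 0.810.

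CAGCTG, a palindrome and a frequent bHLH form of the E-box, was counted more often in promoters with a start peak, at either CpG content. It was in 25.2% (22.1 to 28.5) of start-peak promoters against 15.2% of all windows, searched on both strands. Within CpG-rich windows it was in 24.0% with and 12.3% without a start peak, and within CpG-poor ones in 29.9% and 16.8%. Of the 20 list members with a start peak 8 held it (40%, 21.9 to 61.3), beside 20.4% of all 377 list members with a window. Of the 108 divergent pair genes with a start peak 15 did (13.9%, 8.60 to 21.7). CANNTG of any form was in 67.0% (63.5 to 70.4) of start-peak promoters and 68.8% of all windows, and this order turned within each CpG class. It was in 63.0% (58.9 to 66.8) of CpG-rich windows with a start peak and 57.9% without, and in 83.9% (76.9 to 89.1) and 77.9% of CpG-poor ones. For CAGATG (reverse CATCTG) the shares were 14.3% with a start peak and 14.7% of all windows, but 11.9% and 8.58% with and without one in CpG-rich windows, and 24.1% and 19.7% in CpG-poor ones. CAGGTG (reverse CACCTG) was in 16.8% against 19.5% of all windows, and in 15.6% and 17.0% with and without a start peak among CpG-rich windows and 21.9% and 21.7% among CpG-poor ones. CATATG was rare, in 0.849% against 3.09% of all windows, and in 0.877% and 0.902% within CpG-rich windows. Differences between these shares were not tested.

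General promoter elements were also counted, each on both strands, and most of their differences shrank or turned within CpG-rich windows. The GC box GGGCGG, an Sp factor element, was in 73.1% of start-peak promoters and 46.9% of all, but within CpG-rich windows in 80.0% with and 76.6% without a start peak. The Ets letters CCGGAAG were in 16.7% and 12.1% of start-peak and all promoters, and in 17.4% and 20.4% with and without a start peak among CpG-rich ones. In the same order, the Nrf1 element was in 9.62% and 6.74%, then 11.2% and 13.5%, and TATAAA in 5.80% and 13.4%, then 4.74% and 4.82%. CCAAT was in 44.3% and 39.6%, and in 45.3% and 36.8% of CpG-rich windows. The YY1 letters AAGATGGC were in 6.08% and 3.23%, and in 7.19% and 4.98% of CpG-rich windows. Of divergent pair genes with a start peak 14.8% held them. Among CpG-poor windows with and without a start peak, the GC box was in 44.5% and 20.7% and the Ets letters in 13.9% and 4.88%. There the Nrf1 element was in 2.92% and 1.02%, TATAAA in 10.2% and 21.0%, CCAAT in 40.1% and 41.4%, and the YY1 letters in 1.46% and 1.59%. CpG-poor windows were not alike in CpG, with median ratios of 0.497 with and 0.244 without a start peak.

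Where in the peak these letters lay could be asked for the 525 end peaks that overlapped a window. CAGCTG had 1.25 matches per kb within 50 bp of the peak centre (0.911 to 1.68, exact Poisson interval), 1.55 at 50 to 100 bp and 0.654 (0.381 to 1.05) at 200 to 300 bp. CAGATG had 0.912 (0.624 to 1.29) within 50 bp and 0.305 (0.146 to 0.560) at 50 to 100 bp. A fall away from the centre was not limited to these forms: CANNTG of any form went from 4.70 to 2.69 matches per kb between the innermost and the outermost bin, and CACGCG, a class C bHLH form, from 1.17 within 50 bp to 0.506 at 150 to 200 bp. The Ets letters had their highest density, 1.14 (0.782 to 1.61), at 100 to 150 bp. Over the covered bases as a whole CAGCTG had 1.20 matches per kb in end peaks and 0.584 in all coding windows. The 91 other peaks that overlapped a coding window had 1.76 for CAGCTG. E-boxes of any form had 3.85 matches per kb in end peaks, 5.33 in these other peaks and 4.22 in all coding windows. The GC content of the bases searched was 63.3%, 60.9% and 56.4% in the same order.

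**Figure D5:**
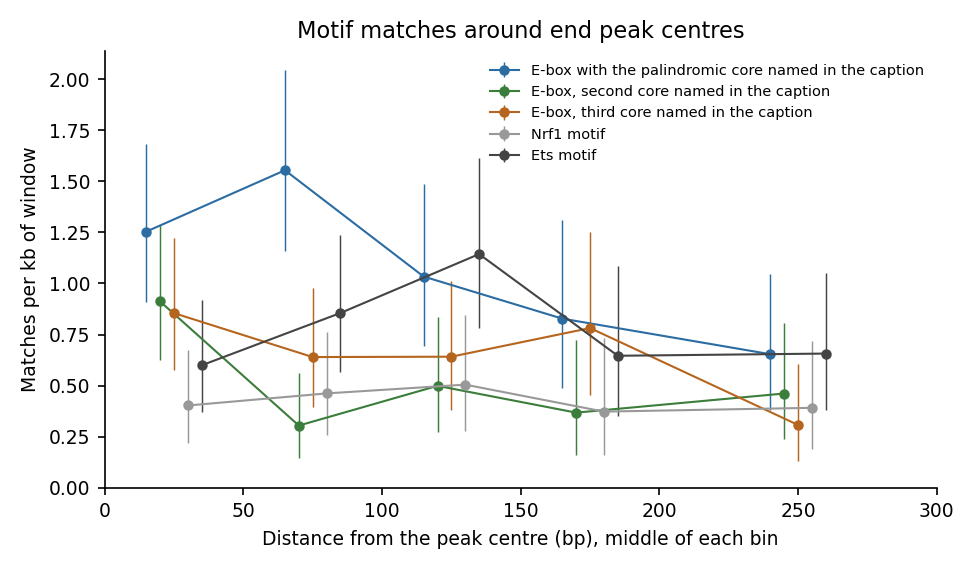
Motif matches per kb (vertical axis, with exact 95% Poisson intervals) by distance of the match from the end peak centre in bp (horizontal axis, points shifted slightly sideways), for CAGCTG (blue), CAGATG (green), CAGGTG (orange), the Nrf1 element (grey) and the Ets letters (dark). The blue line falls from 1.55 at 50 to 100 bp to 0.654 at 200 to 300 bp.

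Compared with the 2868 other peaks, end peaks less often had a near neighbour by count, and a difference in width depended on how they were defined. Their median width was 357 bp (quartiles 268 and 456.75) against 388 bp (269 and 495), a difference of -31 bp. With limits of 500 bp and 2 kb the difference was -33 and -28 bp. It was -3 bp when only peaks overlapping the gene end were counted, a rule that a wider peak meets more easily. The peaks at divergent pairs had a median of 377.5 bp, and those at list members 394.5 bp. The next peak lay within 10 kb for 72 end peaks (9.07%, 7.26 to 11.3) and for 485 other peaks (16.9%, 15.6 to 18.3). Of the other peaks, 1540 (53.7%) were inside a coding gene.

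The 2 kinds of peak reached genes of different length. Genes with an end peak had a median length of 20.2 kb and those with only another peak 73.6 kb, beside 17.3 kb for all coding genes. Gene length was not taken into account in any share above. Of the 930 genes with an end peak 103 (11.1%) also had another peak assigned, Atoh7, Neurod1, Gadd45a and Gadd45g among them, against 7.86% of genes without one. Long noncoding RNA gene ends lay within 1 kb of 92 end peaks (11.6%) and 152 other peaks (5.30%).

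End peaks made up different shares of the peaks on each chromosome. The share was highest on chromosome 7, with 75 of 209 (35.9%), and chromosome 11, with 89 of 265 (33.6%), and lowest on chromosome 18, with 13 of 109 (11.9%). By gene, chromosome 11 had the highest share reached, 6.34%, and the X chromosome the lowest, 1.55%.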

How the data were processed

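CUT&RUN libraries were described above. Per the submitters' processing notes, the authors used MACS2 2.2.7.1, Bowtie2 2.3.5, bedtools, Picard 2.0.1 and SAMtools with the mm10 build; neither order nor settings are stated. The deposited list holds the position, width and name of each peak, per the file headers; the sources used here do not give how the list was filtered or whether the second library or IgG entered it. Width is the only measured value and follows from the bounds.

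Gene ends were the outermost bounds of each gene in RefSeq's GRCm38.p6 gene table (mm10). Strand and promoter windows came from the RefSeq promoter table. Where a gene had several windows, the one nearest its outermost start was used; 60.0% of windows sat at that start itself, and no strand was given for genes on chromosome 18. An end was a start or a finish by strand, and a peak counted for a gene when its centre was within 1 kb. Other peaks were given to the nearest coding gene within 100 kb.

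Counts and shares with 95% Wilson intervals were computed with Python 3.11.15, pandas 2.3.3, numpy 2.4.6 and scipy 1.17.1, and checked on simulated peaks. No test was made, since the list holds no replicate values, and no chance model was built. Motifs were matched letter by letter on both strands. The members, lists, families and motifs were chosen with earlier results of these data known. Named genes were a fixed set of neurogenic genes, all list members reached, up to 4 per family with the widest peaks, the 10 widest end peaks, the 12 divergent pairs with the widest peaks, and genes with peaks at both ends; exceptions are marked, and a few genes that the rule names are not reported here. Alternatives were limits of 500 bp and 2 kb, overlap with the end itself, the wider 50% of peaks, no model genes, other gaps for pairs, and E-boxes inside the peak only.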

Additional observations from a re-analysis of the deposited data

How the results depend on the processing

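The share of end peaks at a start was 96.6% with a limit of 500 bp, 91.0% with 2 kb and 97.8% where the peak had to overlap the end, against 93.6%. The genes reached were 930, and 497 with overlap or 416 with the wider 50% of peaks. The share of list and family members with an end peak was 3.45%, and 2.77% with 500 bp, 4.24% with 2 kb, 1.88% with overlap and 1.71% with the wider peaks, where 3.67%, 5.10%, 2.3% and 1.92% of all genes were reached. The median width difference from other peaks was -31 bp, and -33 bp with 500 bp, -28 bp with 2 kb and -3 bp with overlap, which wider peaks meet more easily. E-boxes were found in 50.2% of the 578 windows that a start peak overlapped when only bases inside the peak were searched. Over the whole windows of all 707 genes with a start peak the share was 67.0%, so both the windows and the length searched differ. The share of end peaks at divergent pairs stayed between 6.17% and 7.74%. Of 55 lists and families, 39 with the wider peaks and 47 with overlap were on the same side of the all-gene share. Those without any member at an end peak could not change side under these narrower rules. They were 5 of 17 lists, 8 of 24 families and 2 of the 14 families added later. No paired analysis was possible because the list holds no value per library, and leaving out a library was not possible for the same reason. Read depth is unknown, so what it limits cannot be given.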
